A study of Mus musculus with 10 samples.

Results

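The 10 genes described here encode the nuclear lamina and the bridge that joins it to the cytoskeleton. They are the lamin genes Lmna, Lmnb1 and Lmnb2, the inner nuclear membrane genes Lbr and Emd, the SUN genes Sun1 and Sun2, and the nesprin genes Syne1, Syne2 and Syne3. They were taken by gene symbol from a table of 32648 genes, and all 10 were among the 18825 genes with enough counts to be tested. RNA was measured in renin cells, the cells of the renal arterioles that make and release renin. They came from the kidney cortex of adult C57BL/6 mice 8 to 12 weeks old that carry the Ren1c-YFP reporter, which marks cells with active renin regulatory sequence by yellow fluorescent protein. The 4 groups were right kidneys (n = 3) and left kidneys (n = 3) of the same 3 mice 72 h after coarctation, a narrowing of the aorta placed between the origins of the renal arteries, and right kidneys (n = 2) and left kidneys (n = 2) of 2 mice 72 h after a sham operation that left the aorta unexposed. From each kidney 1000 live cells with the reporter were sorted and their RNA was amplified with SMART-Seq v4. The sort rests on the reporter alone, so another cell type that carried it, or a missorted cell, would be in the sample.

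The lamina is a meshwork of lamin filaments under the inner nuclear membrane. A-type lamins come from Lmna by alternative splicing and B-type lamins from Lmnb1 and Lmnb2. In the LINC complex, SUN proteins cross the inner membrane and bind lamins on the nuclear side, and in the space between the membranes they hold the KASH tail of a nesprin, which crosses the outer membrane and reaches actin, microtubule motors or other filaments. Through this chain, force on the cytoskeleton reaches the nucleus, and the amount of lamin A and C is known to scale with tissue stiffness. Arteriolar smooth muscle and renin cells are under the load of blood pressure, and a study of a pressure gradient between kidneys raises the question of whether these genes differ between sides.

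Sequences are shown first for places where the members' messages differ. The lamin A message (Lmna-201) and the lamin C message (Lmna-203) are the same up to coding base 1705 and then part. Their bases around that point are given so that the split behind the Lmna transcript lengths can be seen, with capitals marking the bases after it. Lamin C reaches its stop codon 20 bases later, at coding base 1725, and lamin A runs on to base 1998. Sequences are from GENCODE vM21 on GRCm38, chromosome 3, minus strand, written 5′ to 3′.
Lmna-201: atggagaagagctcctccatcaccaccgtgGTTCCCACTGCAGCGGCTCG
Lmna-203: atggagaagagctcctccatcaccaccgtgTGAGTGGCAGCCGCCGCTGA
The last 30 coding bases of the lamin A message hold the CaaX box, the signal for attachment of a farnesyl group. Capitals mark its codons and the stop codon, which the lamin C message lacks.
Lmna-201: cagagctcccagaacTGCAGCATCATGTAA

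The KASH tail is at the very end of the nesprin proteins. The last 60 coding bases before the stop codon are given for the longest-coding message of each nesprin. They show the end that meets SUN proteins in genes of very different level and length. Capitals mark bases shared by all 3 when the sequences are set side by side from the stop codon without gaps (GENCODE vM21, GRCm38; Syne1 on chromosome 10, minus strand; Syne2 on chromosome 12, plus strand; Syne3 on chromosome 12, minus strand).
Syne1: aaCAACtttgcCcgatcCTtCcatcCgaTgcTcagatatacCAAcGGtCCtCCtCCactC
Syne2: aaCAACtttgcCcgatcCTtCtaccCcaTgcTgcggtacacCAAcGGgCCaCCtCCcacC
Syne3: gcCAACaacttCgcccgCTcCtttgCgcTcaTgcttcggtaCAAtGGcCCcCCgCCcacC
In this window Syne1 and Syne2 share 48 of 60 bases (80.0%), Syne2 and Syne3 share 29 (48.3%) and Syne1 and Syne3 share 25 (41.7%). All 3 share 23 bases (38.3%). Near its start the Syne3 window repeats that of Syne1 and Syne2 at an offset, which a count without gaps misses. The values with Syne3 are therefore lower bounds and do not measure how far its KASH tail differs.

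The libraries held 20030029 to 32006102 estimated counts. Both libraries of sham mouse 1 lay far from the others on the main axis of variation over all tested genes (scores of 128 for its right and 107 for its left kidney, with 1.12 the highest score of another library). Each fitted log2 change of a member given below that involves sham kidneys is followed by its value without this mouse where it moved by more than 1.5 times, and the lone sham mouse is then assumed to vary like the coarctation mice. Ren1, the renin gene itself, was abundant in every group. It averaged 9423 ± 3487 TPM in right and 38261 ± 9741 TPM in left kidneys with coarctation (SD, n = 3 each), and 35184 ± 18961 TPM in right and 37209 ± 9457 TPM in left kidneys of sham mice (n = 2 each). The EYFP reporter averaged 133 ± 63.0 and 580 ± 329 TPM in right and left kidneys with coarctation, and 577 ± 568 and 453 ± 373 TPM in right and left sham kidneys. The Ren1 difference between coarctation sides did not pass the edgeR test (log2 change -2.20, SE 0.36, adjusted p = 0.165) without pairing, and passed it with mouse as a block (log2 change -2.23, SE 0.14, adjusted p = 0.00275), and also passed in DESeq2. The markers of other cells that moved with the groups are given after the partner lists. In sorted cells measured in bulk, fewer cells of a type and less RNA per cell cannot be told apart.

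The members spanned a wide range of levels, which the order below gives in TPM, a measure per transcript length that can be set against other genes. Lmna had the highest median over the 10 libraries (54.6 TPM, range 38.5 to 97.5), followed by Emd (39.6, range 27.1 to 51.0) and Syne2 (16.8, range 8.40 to 21.7). Lbr (7.17, range 4.36 to 10.4), Sun1 (7.10, range 4.03 to 9.69) and Syne1 (6.27, range 3.93 to 11.1) formed a middle tier, above Sun2 (3.28, range 2.50 to 6.02). Lmnb2 (0.543, range 0.133 to 2.73), Lmnb1 (0.230, range 0.0130 to 0.889) and Syne3 (0.0589, range 0.0130 to 0.283) were close to the floor. Most steps of this order held library by library. Lmna was above Emd in 9 of 10 libraries, Emd above Syne2 in 10 of 10, Syne2 above Lbr in 10 of 10 and Sun2 above Lmnb2 in 10 of 10. In the middle tier the order did not hold, since Lbr was above Sun1 in 5 of 10 libraries and Sun1 above Syne1 in 4 of 10. Of all tested genes, 91.0% had a median TPM below that of Lmna, and 22.8% one below that of Lmnb1.

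**Figure D1:**
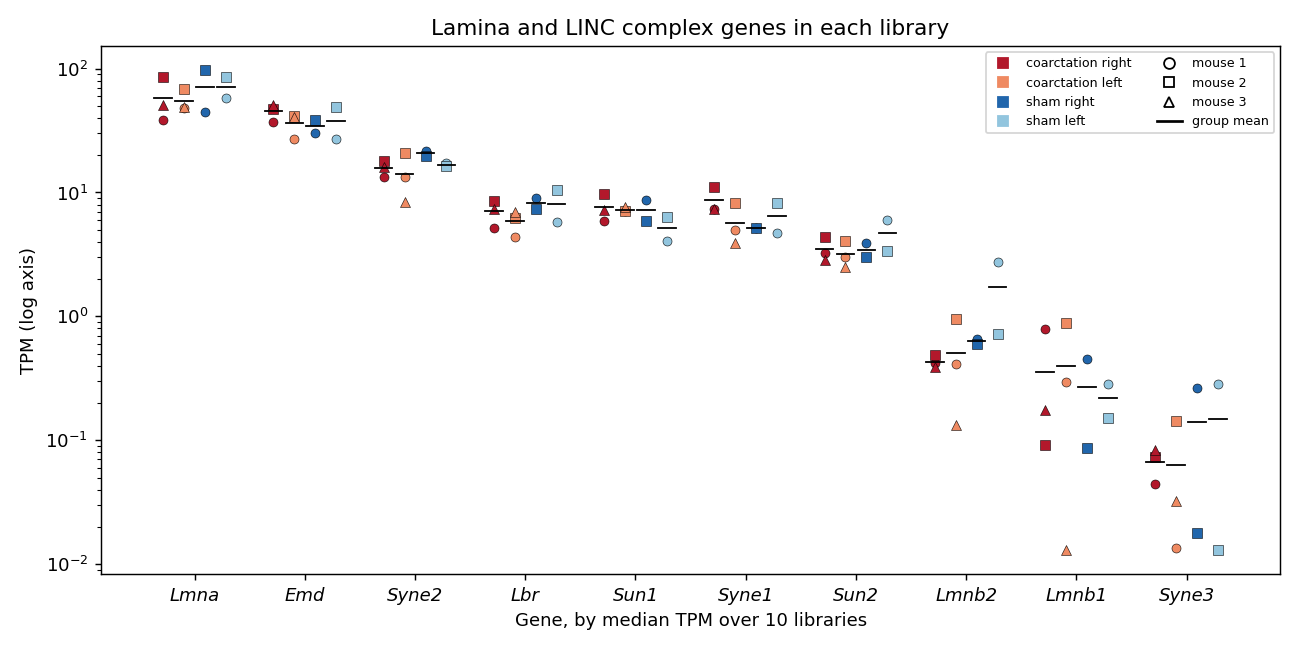
Level of each member in TPM (log axis) in each of the 10 libraries, with members ordered by median and groups marked by colour. The A-type lamin gene Lmna lies between 38.5 and 97.5 TPM in every library, while the B-type lamin genes stay at or below 2.73 TPM.

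The A-type lamin gene made up nearly all lamin message in these cells. Lmna (chromosome 3, GRCm38, 88480147 to 88509956, minus strand), which encodes the lamins A and C whose ends are shown above, had 38.5, 85.7 and 51.0 TPM in right and 47.9, 68.6 and 48.9 TPM in left kidneys of coarctation mice 1, 2 and 3. Sham mice 1 and 2 had 44.6 and 97.5 TPM of it in right and 58.1 and 85.0 TPM in left kidneys. The high values were those of both kidneys of mouse 2 of either operation, and right and left ranges overlapped. Of the TPM of the 3 lamin genes together, Lmna held 95.1% to 99.7% in each library. Its share was lowest in the left kidney of sham mouse 1, where Lmnb2 was at its highest.

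Lmna differed more between mice than between the kidneys of a mouse. Between-mouse differences held 84.7% of the sum of squares of its log2 CPM over the 10 libraries, against a median of 58.0% over all tested genes. This share was higher for Emd (88.9%) and Syne3 (88.8%), and ran from 48.4% to 67.7% for the other members. The right minus left log2 change of Lmna was -0.41, 0.17 and -0.17 within coarctation mice 1, 2 and 3. It was -0.47 and 0.20 within sham mice 1 and 2, with no shared direction under either operation. Averages were 58.4 ± 24.5 TPM in right and 55.1 ± 11.7 TPM in left kidneys with coarctation, and 71.1 ± 37.5 TPM in right and 71.6 ± 19.02 TPM in left sham kidneys. The log2 change between coarctation sides was -0.10 (SE 0.37, 95% interval -0.89 to 0.69, adjusted p = 1 in edgeR's quasi-likelihood test). The mean TPM was higher on the right while the fitted log2 change was below 0, so the measures differ in sign, as they do for Sun1, Sun2 and Syne3. Over all tested genes, TPM was higher on the right in all 3 coarctation mice for 20.8% and lower for 8.15%. In log2 CPM these shares were 14.5% and 13.5%, so TPM leaned to the right kidney with coarctation over the whole table. The interval leaves room for a change in either direction, and the data do not show that the sides are alike.

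Among 10263 well-expressed genes, those whose log2 CPM followed Lmna most closely over the 10 libraries were Ier2 (r = 0.962), an immediate early gene, Pdgfa (r = 0.961), a platelet-derived growth factor gene, and Foxn3 (r = 0.944), a forkhead transcription factor gene. The median r with Lmna over those genes was 0.17. Ier2 ran between 88.0 and 483 TPM and Pdgfa between 29.1 and 117 TPM. These are descriptions over libraries that share mice, dissociation and sort, and were picked as the highest of many.

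The B-type lamin genes were at low counts and varied widely. Lmnb1 (chromosome 18, 56707813 to 56753424, plus strand), the lamin B1 gene, had 56, 7 and 11 estimated counts in right and 18, 62 and 1 in left kidneys of coarctation mice 1, 2 and 3. Its counts in sham mice 1 and 2 were 24 and 6 in right and 16 and 11 in left kidneys. The sides overlapped, and the changes within coarctation mice were 1.30, -3.03 and 2.09 on the log2 scale. Lmnb2 (chromosome 10, 80901203 to 80918245, minus strand), the lamin B2 gene, had 32, 41 and 27 counts in right and 28, 73 and 10 in left kidneys with coarctation, against 38 and 47 in right and 169 and 55 in left sham kidneys. The left kidney of sham mouse 1 stood above the rest. Between the coarctation sides the log2 change was -0.10 (SE 1.27) for Lmnb1 and -0.31 (SE 0.86) for Lmnb2, and the intervals included changes of several-fold in either direction. TPM ratios of Lmna to Lmnb1 ran from 48.3 to 3758 over libraries, and those of Lmna to Lmnb2 from 21.3 to 368.

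Lbr and Emd, which anchor chromatin and the lamina at the inner membrane, were higher than both B-type lamin genes in each library. Lbr (chromosome 1, 181815335 to 181843046, minus strand) encodes the lamin B receptor, which binds heterochromatin and also has sterol reductase activity. It had 5.19, 8.57 and 7.35 TPM in right and 4.36, 6.24 and 7.01 TPM in left kidneys of coarctation mice 1, 2 and 3, against 8.99 and 7.32 TPM in right and 5.76 and 10.4 TPM in left kidneys of sham mice 1 and 2. Groups overlapped throughout. The SD of its log2 CPM over all libraries was 0.30, at the 2.6th percentile of the 500 tested genes nearest to it in level, where the median SD was 0.57. The gene overlaps Dnah14 on the opposite strand, and no source used here states counting by strand, so reads from the overlap could not be assigned.

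Emd (chromosome X, 74254687 to 74261548, plus strand) encodes emerin, a LEM-domain protein that binds lamins and the chromatin factor encoded by Banf1. It had 37.4, 47.2 and 51.0 TPM in right and 27.1, 41.1 and 40.7 TPM in left kidneys of coarctation mice 1, 2 and 3. The right kidney was the higher one in each mouse, by 0.37, 0.048 and 0.095 on the log2 CPM scale, while the ranges of the sides overlapped. In sham mice 1 and 2 it had 30.4 and 38.4 TPM in right and 27.2 and 48.6 TPM in left kidneys, with changes of 0.076 and -0.33. The coarctation change of 0.16 (SE 0.34) did not pass the test (adjusted p = 1). A processed pseudogene, Gm14686, overlaps Emd on the same strand, which makes its counts less certain.

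Of the SUN genes, Sun1 was above Sun2 in 9 of 10 libraries. Sun1 (chromosome 5, 139200637 to 139249840, plus strand) had 5.87, 9.69 and 7.29 TPM in right and 7.12, 7.07 and 7.58 TPM in left kidneys of coarctation mice 1, 2 and 3. In sham mice 1 and 2 it had 8.64 and 5.87 TPM in right and 4.03 and 6.29 TPM in left kidneys. Sun2 (chromosome 15, 79724070 to 79742536, minus strand) had 3.22, 4.39 and 2.86 TPM in right and 3.00, 4.03 and 2.50 TPM in left kidneys with coarctation. Sham kidneys had 3.88 and 2.99 TPM of Sun2 on the right and 6.02 and 3.35 TPM on the left. The exception to the order was the left kidney of sham mouse 1, with the lowest Sun1 and the highest Sun2 value of all libraries and a Sun1 to Sun2 ratio of 0.669, against 1.76 to 3.03 in the other libraries. Sun2 was the steadiest member within coarctation mice, with changes of 0.010, -0.029 and -0.036 on the log2 scale. The SD of its log2 CPM over all libraries was 0.28, at the 1st percentile of the 500 tested genes nearest to it in level, where the median SD was 0.67. Both SUN genes overlap an annotated antisense gene (4930520M14Rik at Sun1 and Gm16575 at Sun2), with the same limit on strand.

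The nesprin genes differed widely in level. Syne1 (chromosome 10, 5020917 to 5551482, minus strand) encodes nesprin 1, whose giant form binds actin and whose shorter forms lack that end. It had 7.42, 11.1 and 7.35 TPM in right and 4.98, 8.21 and 3.93 TPM in left kidneys of coarctation mice 1, 2 and 3. Each right kidney was above the left of the same mouse, by 0.48, 0.28 and 0.67 on the log2 CPM scale, although mouse 2 on the left was above mice 1 and 3 on the right. In sham mice 1 and 2 Syne1 had 5.14 and 5.19 TPM in right and 4.73 and 8.20 TPM in left kidneys, with changes of 0.035 and -0.65. Every right kidney with coarctation was thus above both right sham kidneys.

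Syne2 (chromosome 12, 75818134 to 76110926, plus strand), the nesprin 2 gene, was above Syne1 in 10 of 10 libraries. It had 13.3, 18.0 and 16.1 TPM in right and 13.2, 20.8 and 8.40 TPM in left kidneys with coarctation, and 21.7 and 19.6 TPM in right and 17.3 and 16.4 TPM in left kidneys of sham mice. Both right sham kidneys were the higher ones of their mice and above every right kidney with coarctation. The Syne1 to Syne2 ratio was therefore 0.456 to 0.617 in right kidneys with coarctation and 0.237 to 0.264 in right sham kidneys, with left kidneys at 0.377 to 0.468 and 0.274 to 0.501. Syne3 (chromosome 12, 104929933 to 105009809, minus strand), the gene of nesprin 3, which in mouse binds plectin and so intermediate filaments, had 7, 13 and 12 counts in right and 2, 23 and 5 in left kidneys with coarctation. Sham mice 1 and 2 had 32 and 3 counts in right and 37 and 2 in left kidneys, so that mouse 1 was high on both sides and mouse 2 low on both.

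**Figure D2:**
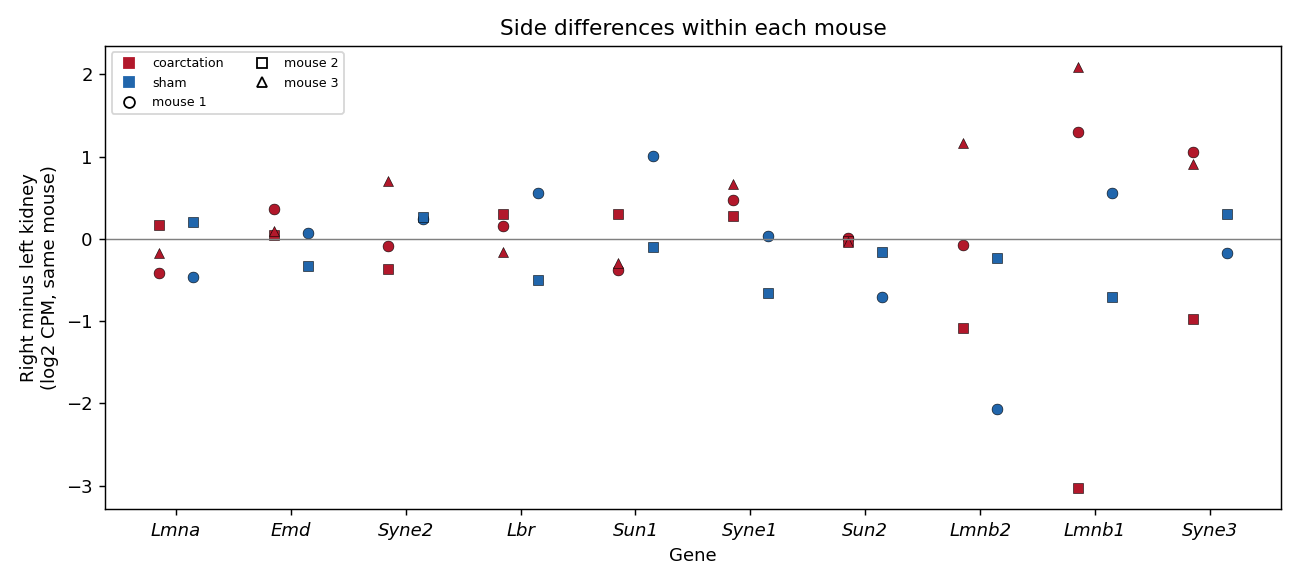
Right minus left difference in log2 CPM within each of the 5 mice for each member, with coarctation and sham mice marked by colour. Syne1 (0.28 to 0.67) and Emd (0.048 to 0.37) are above 0 in all 3 coarctation mice, and Lmnb1 ranges from -3.03 to 2.09.

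Right and left kidneys of coarctation mice were compared to ask which genes of these cells differ across the constriction. No member passed the test (0 of 10 in edgeR, DESeq2, limma-voom and in edgeR with mouse as a block, and 0 at an unadjusted p under 0.05 in edgeR). The share of all 18825 genes called by edgeR was 0% as well, with 871 at an unadjusted p under 0.05, while DESeq2 called 76, limma-voom 0 and edgeR with mouse as a block 5. Of the members, 4 were higher and 6 lower in the right kidney, with a median log2 change of -0.014, against 0.020 over all tested genes. Syne1 had the highest change of the members in this comparison, 0.45 (SE 0.33, 1.37-fold, 95% interval -0.27 to 1.17, adjusted p = 1), and with mouse as a block 0.48 (SE 0.23, adjusted p = 0.853). In log2 CPM, Syne1 and Emd, 2 of 10 members (20.0%), had a higher right kidney value in all 3 coarctation mice, against 14.5% of all tested genes, and no member was lower in 3 of 3 mice, against 13.5%. In TPM, a scale added here after the data were seen, the same count was 4 of 10 (40.0%), with Sun2 and Lbr in addition, against 20.8% of all tested genes, and 0 were lower, against 8.15%. No member's groups were free of overlap, against 11.5% of all tested genes.

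The remaining members gave small or loosely determined changes between the coarctation sides. They were -0.12 (SE 0.37) for Sun1, -0.017 (SE 0.43) for Sun2, 0.020 (SE 0.31) for Syne2, 0.088 (SE 0.40) for Lbr and -0.0099 (SE 1.26) for Syne3. The intervals of Lmna, Sun1, Sun2, Syne2, Emd and Lbr all lay within -0.94 and 0.95 on the log2 scale. A 2-fold change of these 6 genes in either direction was outside the interval, whereas the intervals of Lmnb1 (-2.85 to 2.65), Lmnb2 (-2.16 to 1.54) and Syne3 (-2.75 to 2.73) were wide.

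In sham mice, which ask what the sides differ by without a constriction, no member passed either (0 of 10 in each of those tools, 0 at an unadjusted p under 0.05). The share of all genes called by edgeR was 0%, with 366 at an unadjusted p under 0.05, and DESeq2 called 28 and limma-voom 0. The changes ran between -1.44 (SE 1.06) for Lmnb2, lower in 2 of 2 mice, and 0.42 (SE 0.46) for Sun1, which was 1.01 in mouse 1 and -0.096 in mouse 2. Syne2 changed by 0.26 (SE 0.38) and Syne1 by -0.38 (SE 0.41). Without sham mouse 1 the change was -0.24 for Lmnb2, -0.094 for Sun1 and -0.65 for Syne1. The members' median was -0.094, against 0.019 over all genes. Right and left did not overlap for Syne2 (above) and Lmnb2 (below), 2 of 10 members, against 20.2% of all tested genes.

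The difference between these side changes, coarctation minus sham, passed for no member (0 of 10 in each of those tools, 0 at an unadjusted p under 0.05). edgeR called 0% of all genes, with 575 at an unadjusted p under 0.05, DESeq2 called 34 and limma-voom 0. Outside the low-count members Lmnb1, Lmnb2 and Syne3, Syne1 had the largest difference, 0.83 (SE 0.53, 95% interval -0.31 to 1.97, adjusted p = 1). Sun1 differed by -0.54 (SE 0.59), Sun2 by 0.46 (SE 0.68), Emd by 0.34 (SE 0.54), Lmna by -0.084 (SE 0.58) and Lbr by 0.14 (SE 0.63). Without sham mouse 1 the difference was 1.10 for Syne1 (SE 0.56), -0.026 for Sun1, 0.14 for Sun2, -0.31 for Lmna and 0.59 for Lbr. The median was 0.13 for the members and 0.016 for all genes. In log2 CPM no member moved one way in all coarctation mice and the other way in both sham mice, against 6.45% of all tested genes. In TPM 1 member did, Sun2, higher on the right in the coarctation mice and lower in the sham mice, against 6.26% of all tested genes.

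Coarctation and sham mice were also compared within a side, to ask whether either kidney departs from its sham counterpart. These comparisons are between mice and share the libraries used above. In left kidneys 0 members passed in edgeR, DESeq2 and limma-voom (0 at an unadjusted p under 0.05). edgeR called 0% of all genes, with 894 at an unadjusted p under 0.05, DESeq2 called 39 and limma-voom 0. Sun1 averaged 7.26 ± 0.279 TPM in left kidneys with coarctation and 5.16 ± 1.60 TPM in left sham kidneys (log2 change 0.74, SE 0.43, adjusted p = 0.912), with no overlap. It was the 1 member of 10 without overlap, against 21.7% of all tested genes. Lmnb2 had the largest change, -1.54 (SE 0.94, adjusted p = 0.912), and overlapped. Without sham mouse 1 the change was 0.41 (SE 0.47) for Sun1 and -0.38 (SE 1.17) for Lmnb2. The members' median was -0.084, against -0.023 over all genes.

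In right kidneys 0 members passed in the same tools. edgeR called 0% of all genes, with 720 at an unadjusted p under 0.05, DESeq2 called 55 and limma-voom 0. Syne1 averaged 8.63 ± 2.15 TPM in right kidneys with coarctation and 5.16 ± 0.0393 TPM in right sham kidneys (log2 change 0.86, SE 0.38, 1.81-fold, 95% interval 0.031 to 1.68). It was the 1 member at an unadjusted p under 0.05 in edgeR, and its adjusted p was 0.995. Without sham mouse 1 its change was 0.74 (SE 0.41, adjusted p = 0.961). Emd averaged 45.2 ± 7.05 TPM with coarctation and 34.4 ± 5.69 TPM in sham (log2 change 0.51, SE 0.39, adjusted p = 0.995, and 0.25 without sham mouse 1). Syne2 averaged 15.8 ± 2.38 and 20.7 ± 1.42 TPM (log2 change -0.26, SE 0.34, adjusted p = 0.995). Lmna was at a log2 change of -0.23 (SE 0.41, adjusted p = 0.995) with all libraries and at -0.75 (SE 0.35, adjusted p = 0.961) without sham mouse 1. In log2 CPM the groups did not overlap for Syne1 and Emd (above) or for Syne2 and Lmnb2 (below), 4 of 10 members, against 16.4% of all tested genes. In TPM Emd did overlap, since coarctation mouse 1 had 37.4 and sham mouse 2 had 38.4. The median over members was 0.035, against -0.049 over all genes.

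**Figure D3:**
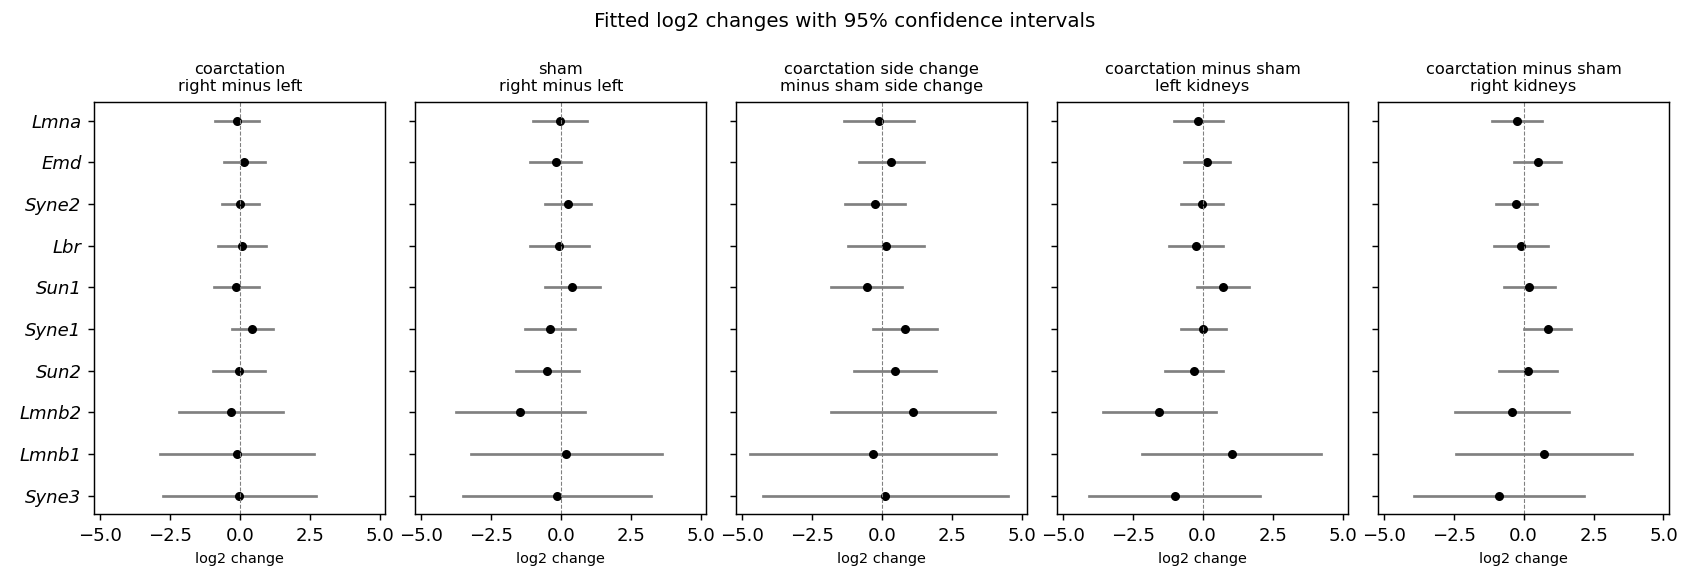
Log2 change with 95% interval for each member in each of the 5 comparisons, from the edgeR model over all 10 libraries. All intervals include 0 except that of Syne1 in right kidneys with coarctation against right sham kidneys (0.031 to 1.68), which did not pass after adjustment.

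Over the 10 libraries the highest correlations of log2 CPM were between Lmnb2 and Sun2 (r = 0.79) and between Syne1 and Emd (r = 0.63), and the lowest was between Lmnb2 and Sun1 (r = -0.84). The left kidney of sham mouse 1, highest in Lmnb2 and Sun2 and lowest in Sun1, enters each pair that holds these genes, and without it r was 0.51 for Lmnb2 and Sun2, 0.51 for Syne1 and Emd, and -0.57 for Lmnb2 and Sun1 (n = 9 libraries). Without it the correlation of Lmnb2 with Syne2 was higher, at 0.92, against 0.56 over the 10 libraries. The values without this library were added after the data were seen. Lmna correlated at 0.31 with Syne1 and at -0.029 with Sun1. These points share mice, sort and library depth and are given as a description.

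The mix of transcripts behind each gene was read from the average transcript length, which the deposited table gives per library and which does not enter the counts as scaled. Syne1 averaged 5465 to 11734 bases and Syne2 1779 to 5435 bases over the libraries, whereas their longest annotated coding messages hold 27908 and 21704 bases. Lmna averaged 1243 to 1689 bases, below both the lamin A message (3156 bases) and the lamin C message (2021 bases). Shorter annotated coding transcripts of Lmna include Lmna-202 (1536 bases) and Lmna-206 (785 bases), so these lengths do not read the split of lamin A and C. The deposited lengths are described here as averages and are not compared with whole transcripts as a test, since the quantifier's length correction is not given in the sources used here. How much of the message of each form was present cannot be read from 1 average.

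Length was compared between groups for the same 18825 genes with limma, and 0 members passed in any comparison. The share of all genes called was 0.00531% for coarctation right minus left, 0.0106% for sham right minus left and for the difference between them, and 0.0212% for coarctation minus sham in left and in right kidneys. Syne2 had lengths of 2604, 2544 and 2706 bases in right and 2471, 3973 and 5435 bases in left kidneys of coarctation mice 1, 2 and 3 (log2 change -0.52, SE 0.32, adjusted p = 1). The right kidneys lay close together and the left ones far apart. Lbr had 1904, 1920 and 1486 bases in right and 2448, 2274 and 2357 bases in left kidneys of those mice (log2 change -0.42, SE 0.27, adjusted p = 1), shorter on the right in 3 of 3 mice and without overlap, against 8.38% of all tested genes without overlap. In sham mice 1 and 2 the Lbr lengths were 1256 and 2465 bases on the right and 1600 and 2376 bases on the left, with no shared direction. Sun1 was longer on the right in 3 of 3 coarctation mice, by 0.38, 0.33 and 0.19 on the log2 scale, with 2908, 2481 and 2234 bases in right and 2239, 1980 and 1960 bases in left kidneys (log2 change 0.30, SE 0.32, adjusted p = 1). Its length changed by -0.95 and 0.70 in sham mice 1 and 2. The share of all tested genes with 1 direction of length in 3 of 3 mice was not counted. Between sham sides, 2 members did not overlap in length, Lmna and Syne3 (longer on the right), against 39.4% of all tested genes. Between right kidneys with coarctation and right sham kidneys, 1 member did not, Syne3 (shorter with coarctation), against 15.3%. The smallest unadjusted p of a member was that of Syne3 for the difference between side changes (adjusted p = 0.841, limma).

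**Figure D4:**
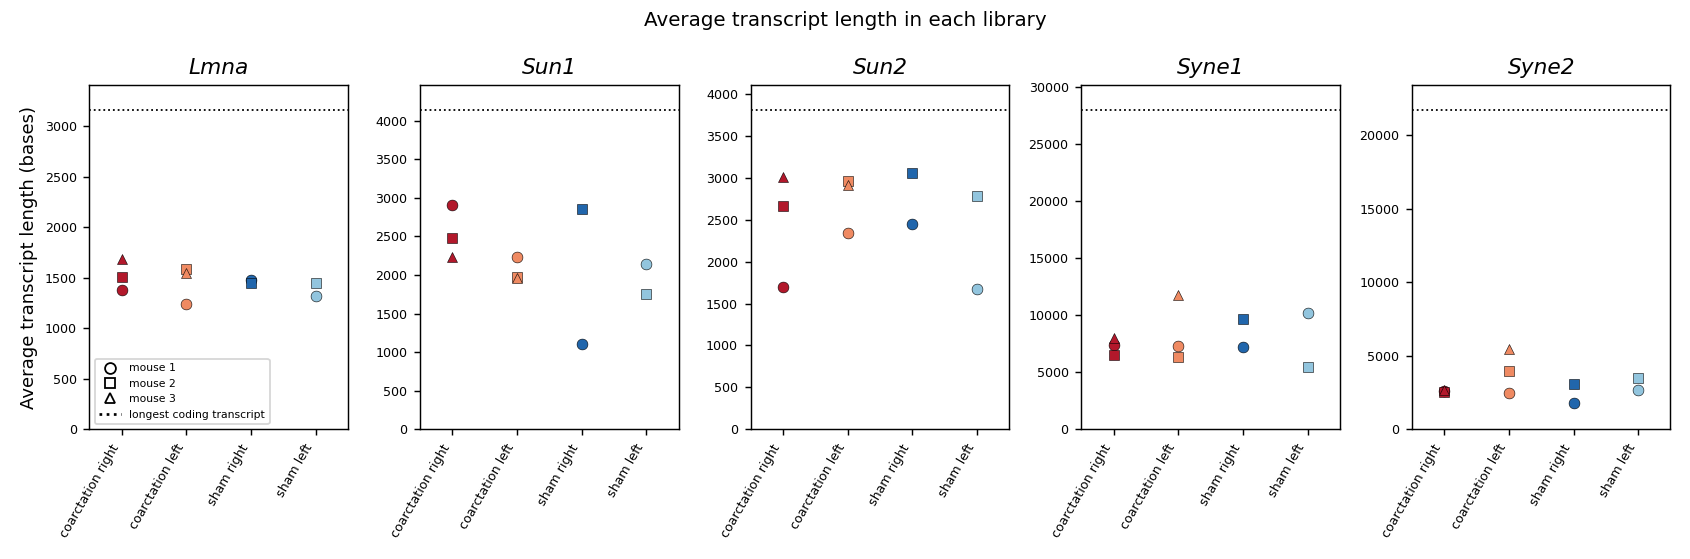
Average transcript length in bases (linear axis) per library for Lmna, Sun1, Sun2, Syne1 and Syne2, with a dotted line at the longest annotated coding transcript. For Syne1 and Syne2 every library lies well below the line, at up to 11734 and 5435 bases.

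Other genes of the nuclear envelope were read from lists of partners, and no gene of these lists passed in edgeR, DESeq2 or limma-voom in any comparison. Of 20 other inner membrane and lamina genes, 10 were higher and 10 lower in right than in left kidneys with coarctation (median log2 change 0.00049, 0 at an unadjusted p under 0.05). Their most abundant member described here, Banf1, the gene of the chromatin factor that emerin binds, averaged 951 ± 47.9 TPM in right and 955 ± 93.5 TPM in left kidneys with coarctation, and 936 ± 31.0 and 875 ± 75.9 TPM in right and left sham kidneys. Tmpo, the gene of the LAP2 proteins, averaged 18.96 ± 4.59 and 16.1 ± 2.94 TPM with coarctation and 19.7 ± 3.00 and 20.4 ± 0.848 TPM in sham. Banf1 and Tmpo were named after their values were seen. Nup50, a nuclear pore gene, averaged 4.73 ± 0.896 TPM in right and 1.88 ± 0.513 TPM in left sham kidneys (log2 change 1.27, SE 0.55, adjusted p = 1 in edgeR). Tmem38a, a cation channel gene of the nuclear and reticular membranes, averaged 4.88 ± 2.51 TPM in right kidneys with coarctation and 2.05 ± 0.259 TPM in right sham kidneys (log2 change 1.35, SE 0.65). Tor1aip2, whose product activates torsin ATPases, averaged 24.7 ± 6.28 and 16.0 ± 6.14 TPM in those groups (log2 change 0.77, SE 0.42).

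The lamin processing list holds, among others, enzymes that attach a farnesyl group at the CaaX box shown above, cleave the end and methylate it. Of 6 tested, 4 were higher and 2 lower in right than in left kidneys with coarctation (median 0.29, 0 at an unadjusted p under 0.05). Icmt, the enzyme that methylates the processed end, averaged 0.897 ± 0.397 TPM in left kidneys with coarctation and 3.02 ± 1.54 TPM in left sham kidneys (log2 change -1.49, SE 0.77, adjusted p = 0.912). Rce1, the protease that cleaves the end, averaged 7.95 ± 3.17 and 17.4 ± 2.77 TPM in the same groups (log2 change -0.89, SE 0.56, adjusted p = 0.912). Fntb, the farnesyltransferase beta subunit, averaged 4.41 ± 1.87 TPM in right and 2.09 ± 0.906 TPM in left kidneys with coarctation (log2 change 0.92, SE 0.71, adjusted p = 1). Of 5 genes for kinases and a caspase that act on lamins, 3 were higher and 2 lower (median 0.26). Prkcd, a protein kinase C gene, averaged 7.70 ± 0.331 TPM in right kidneys with coarctation and 3.94 ± 0.640 TPM in right sham kidneys (log2 change 1.12, SE 0.53, adjusted p = 0.995). Cdk1, the mitotic kinase that phosphorylates lamins, averaged 3.54 ± 3.65 TPM in right and 0.212 ± 0.0146 TPM in left sham kidneys (log2 change 3.98, SE 1.85, adjusted p = 1). The right sham values of Cdk1 were 6.13 TPM in mouse 1 and 0.962 TPM in mouse 2. In coarctation mice 1, 2 and 3 it was also higher on the right, by 0.29, 4.16 and 2.86 in log2 CPM. Of all tested genes, 14.5% were higher on the right in all 3 of these mice. Prkca, another protein kinase C gene, had a difference between side changes of -1.76 (SE 0.87, adjusted p = 1).

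Of 14 cytoskeletal partners, 4 were higher and 10 lower in right than in left kidneys with coarctation (median -0.16, against 0.020 over all genes), with 2 at an unadjusted p under 0.05. Dync1h1, the heavy chain of the dynein motor, had 13.04, 14.9 and 11.5 TPM in right and 5.87, 9.64 and 6.43 TPM in left kidneys of coarctation mice 1, 2 and 3 (log2 change 0.71, SE 0.28, adjusted p = 1 in edgeR). The sides did not overlap in TPM. In log2 CPM 11.5% of all tested genes had no overlap between these sides, and Dync1h1 was named for its small p. Sham mice 1 and 2 had the same direction for Dync1h1, with 16.1 and 16.4 TPM on the right and 11.8 and 9.37 TPM on the left. Klc1, a light chain of the kinesin motor, averaged 10.8 ± 0.890 TPM in right and 18.3 ± 6.71 TPM in left kidneys with coarctation (log2 change -0.88, SE 0.37, adjusted p = 1), and 17.0 ± 4.59 and 24.1 ± 1.92 TPM in right and left sham kidneys. Vim, the vimentin gene, averaged 134 ± 35.3 TPM in left kidneys with coarctation and 92.6 ± 22.6 TPM in left sham kidneys (log2 change 0.77, SE 0.36, adjusted p = 0.912). Of 5 chromatin partners of the lamina, 5 were higher with coarctation than in sham in left kidneys (median log2 change 0.48). In right kidneys 5 were higher as well (median 0.18), with 0 at an unadjusted p under 0.05 on either side. Of all tested genes, 48.8% were higher in left and 47.3% in right kidneys (medians -0.023 and -0.049). Both counts rest on the same 2 sham mice, and no value of this list without sham mouse 1 is given. On the same list 1 was higher and 4 lower in right than in left kidneys with coarctation (median -0.084), with all changes between -0.18 and 0.077. Rb1, the retinoblastoma gene, averaged 9.59 ± 2.64 TPM in left kidneys with coarctation and 7.15 ± 1.78 TPM in left sham kidneys (log2 change 0.68, SE 0.43). Hdac3, a histone deacetylase gene, averaged 11.9 ± 4.23 and 9.63 ± 2.51 TPM in those groups (log2 change 0.57, SE 0.43). Cbx1, a heterochromatin protein gene, averaged 38.2 ± 4.74 TPM in right and 26.0 ± 7.04 TPM in left sham kidneys (log2 change 0.52, SE 0.37). All 3 missed the threshold.

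Of the SUN and KASH genes known mainly from testis and other restricted tissues, 6 were tested, and Syne4 was the one that reached the levels of the middle-tier members. The other 5, Sun3, Sun5, Spag4, Ccdc155 and Lrmp, were at or below 3.04 TPM in every library. Sun3, known from developing sperm, had 0, 2 and 0 estimated counts in right and 27, 6 and 51 in left kidneys of coarctation mice 1, 2 and 3 (adjusted p = 0.921 in edgeR, under 0.05 before adjustment). The sides did not overlap in counts, but Sun3 too was named for its small p, and 11.5% of all tested genes had no overlap in log2 CPM. In sham mice 1 and 2 Sun3 had 6 and 2 counts in right and 6 and 58 in left kidneys, so that the left kidney of sham mouse 2 was as high as any. Syne4, a gene of nesprin 4, had 4.95 to 7.08 TPM in right and 4.77 to 20.9 TPM in left kidneys with coarctation, and 3.61 and 29.7 TPM in right and 6.88 and 18.6 TPM in left sham kidneys. Spag4, a SUN-domain gene, had 1 to 177 counts over the libraries.

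Cell cycle and senescence genes were read because lamin B1 is known to fall in senescent cells and lamins are taken apart in mitosis. The summed TPM of the 10 cycling genes was 3.89 to 25.6 in right and 7.90 to 18.8 in left kidneys with coarctation, and 3.78 and 30.4 in right and 6.23 and 23.3 in left sham kidneys. Mki67, the proliferation marker, was at 0.0319 to 0.501 TPM over the 10 libraries. Cdkn1a, which encodes the cell cycle inhibitor p21, averaged 160 ± 65.3 TPM in right and 136 ± 38.8 TPM in left kidneys with coarctation, and 147 ± 93.9 TPM in right and 91.5 ± 55.5 TPM in left sham kidneys. Ccnb1, a mitotic cyclin gene, averaged 1.01 ± 1.54 TPM in right and 0.105 ± 0.0513 TPM in left kidneys with coarctation (log2 change 3.01, SE 1.27, adjusted p = 1 in edgeR). Top2a, a topoisomerase gene of cycling cells, averaged 0.672 ± 0.409 TPM in right kidneys with coarctation and 3.32 ± 3.88 TPM in right sham kidneys (log2 change -2.10, SE 1.01, adjusted p = 0.995). The right sham values of Top2a were 6.06 TPM in mouse 1 and 0.578 TPM in mouse 2. In the same comparison Mki67 went the other way, with a log2 change of 2.15 (SE 1.04, adjusted p = 0.995 in edgeR). Of the 10 cycling genes, 7 were higher and 3 lower there (median 0.47, against -0.049 over all genes). Of 5 tested senescence genes 2 were higher and 3 lower in right than in left kidneys with coarctation, with 0 at an unadjusted p under 0.05. Against sham, 5 of 5 were higher with coarctation in left kidneys (median log2 change 0.35), where 48.8% of all tested genes were higher. In right kidneys 2 were higher than in sham and 3 lower (median -0.34). Cdkn2b, a cell cycle inhibitor gene, averaged 0.730 ± 0.123 TPM in left kidneys with coarctation and 0.132 ± 0.0447 TPM in left sham kidneys (log2 change 2.72, SE 1.35, adjusted p = 0.912). Glb1, the gene of the beta-galactosidase used to stain senescent cells, averaged 6.43 ± 1.55 TPM in right kidneys with coarctation and 3.85 ± 2.46 TPM in right sham kidneys (log2 change 0.91, SE 0.59, adjusted p = 0.995).

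Markers of other kidney and blood cells were present and differed between groups, and their part in the members' values was not tested. In right minus left kidneys with coarctation, 8 of 9 renin cell and smooth muscle markers were lower, 7 of 10 distal tubule and collecting duct markers higher, 6 of 6 podocyte markers lower, 8 of 10 leukocyte markers higher, 7 of 8 proximal tubule markers lower and 5 of 8 endothelial markers lower. At an unadjusted p under 0.05 there were 3 renin cell and smooth muscle, 3 distal tubule and collecting duct, 2 podocyte and 5 leukocyte markers, and 0 in the other lists. In right kidneys with coarctation against right sham kidneys, where Syne1 was under 0.05 before adjustment, 6 of 6 podocyte markers were lower, 8 of 10 leukocyte and 8 of 10 distal tubule and collecting duct markers higher, 6 of 8 proximal tubule markers higher, 6 of 8 endothelial markers lower and 5 of 9 renin cell and smooth muscle markers lower. Of these, 3 podocyte, 1 leukocyte and 2 renin cell and smooth muscle markers were at an unadjusted p under 0.05, and 0 in the other lists. Called by any tool in any comparison were Ren1 (DESeq2, and edgeR and limma-voom with mouse as a block) and H2-Aa (DESeq2). Summed TPM of the distal tubule and collecting duct list was 193 to 1012 in right and 92.7 to 281 in left kidneys with coarctation, and 113 to 305 in right and 232 to 441 in left sham kidneys. Sums of the leukocyte list were 294 to 938 TPM in right and 68.0 to 436 TPM in left kidneys with coarctation, and 125 to 325 TPM in right and 124 to 438 TPM in left sham kidneys. Podocyte sums were 38.0 to 45.5 TPM in right and 50.4 to 75.2 TPM in left kidneys with coarctation, and 62.8 to 83.9 TPM in right and 35.5 to 80.0 TPM in left sham kidneys. Proximal tubule sums were 137 to 215 TPM in right and 68.4 to 301 TPM in left kidneys with coarctation, and 68.1 to 217 TPM in right and 146 to 239 TPM in left sham kidneys. Endothelial sums were 95.1 to 108 TPM in right and 64.6 to 92.6 TPM in left kidneys with coarctation, and 76.2 to 99.9 TPM in right and 84.7 to 101 TPM in left sham kidneys.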

How the data were processed

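Gene-level values were read for 10 libraries from 5 mice. The deposited table gives, per the file headers, TPM, estimated counts and average transcript length in bases. One deposited column names the scaling of the estimated counts, from TPM by average length and library size, so length differences between libraries do not enter them. FastQC and GRCm38 (mm10) are named in the submitters' processing notes, and for the aligner, the quantifier and the annotation the entry is: not given in the sources used here. No column of per-sample values was left out (0 columns). Symbols were matched to GENCODE vM21 for positions and sequences.

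The estimated counts were rounded and tested in R 4.3.3 with edgeR 4.0.16 (filterByExpr, TMM scaling, quasi-likelihood test of 4 groups over all 10 libraries, common dispersion 0.45, 6 residual degrees of freedom), with Benjamini-Hochberg adjustment over 18825 genes and 0.05 as threshold. The edgeR and limma scripts were tested on simulated data. Average lengths were tested as log2 values with limma 3.58.1. Log2 CPM used a prior count of 2. Alternatives were DESeq2 1.42.0, limma-voom, other scalings and filters, leaving out libraries or mice, and mouse as a block. The kidneys of a mouse pair by the mouse number in the labels. Right and left deviations from their group means correlated at 0.127, 0.0496 and 0.0307 in coarctation mice 1, 2 and 3 and at 0.398 in the sham mice. With 2 mice in a sham group the deviations mirror each other, so both sham mice must give the same value. That value depends on how far sham mouse 1 lay from sham mouse 2 on both sides. It cannot be set against those of the coarctation mice. Mice are the replicates, and the reads carry no molecular identifiers. TPM values are mean ± SD.

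The members and the 14 partner and marker lists were chosen with earlier results of these data known. The rule named all members, the 3 genes of smallest p in each list, Ren1, EYFP and the 3 genes most like Lmna among those whose log2 CPM averaged 2 or more. Of the cell type lists other than Ren1 and EYFP, counts and sums are given in place of single genes.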

Additional observations from a re-analysis of the deposited data

How the results depend on the processing

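No member passed the threshold in any comparison under any alternative, and the lowest adjusted p of a member was 0.489. Of 410 log2 changes of members under other scalings, filters and tools, 33 changed sign, and of 750 with a library or mouse left out, 97 did, all of them not called. The number of genes called over the whole table was less stable. Without the filter on low counts it was 112 for right minus left in coarctation, 19 in sham, 63 for the difference between the side changes, and 67 and 70 for coarctation minus sham in left and in right kidneys. With DESeq2 it was 76, 28, 34, 39 and 55 for the same comparisons. With at least 10 counts in every library it was 1 for right minus left in coarctation. Over libraries and mice left out it ran from 0 to 4 for right minus left in coarctation, from 0 to 1 for the difference, and from 0 to 3 for coarctation minus sham in right kidneys, and the counts above 0 came without the right kidney of coarctation mouse 3 or without both its kidneys. With mouse as a replicate block, edgeR called 5 genes and limma-voom 6 for right minus left in coarctation, and the block changed no call of a member. The causes of these differences were not tested.

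These are the member changes that changed sign with every library kept. For right minus left in coarctation, Sun2 was at 0.016 with RLE scaling, 0.011 with upper quartile scaling, 0.023 with at least 10 counts in every library and 0.016 in DESeq2. Syne3 was at 0.014 with RLE scaling, 0.018 in DESeq2, 0.37 in limma-voom (0.37 with the replicate block) and 0.42 in edgeR with the replicate block. Lmnb1 was at 0.17 in limma-voom (0.17 with the replicate block) and 0.45 in edgeR with the replicate block. For right minus left in sham, Lmna was at 0.0052 with RLE scaling and 0.0052 in DESeq2. Lbr was at 0.023 with upper quartile scaling, 0.0092 in limma-voom, 0.0073 in limma-voom with the replicate block and 0.026 in edgeR with it. Lmnb1 and Syne3 were at -0.14 and 0.14 in limma-voom, -0.14 and 0.14 there with the replicate block, and -0.096 and 0.11 in edgeR with it. For the difference between side changes, Lmnb1 was at 0.31 in limma-voom (0.31 with the replicate block) and 0.55 in edgeR with it. For coarctation minus sham in left kidneys, Syne1 was at -0.061 with upper quartile scaling, -0.058 with at least 10 counts in every library and -0.016 with only the libraries compared, and Syne2 at 0.023 without the filter. In right kidneys Syne3 was at 0.018 in limma-voom and 0.013 with the replicate block. Upper quartile scaling moved the median of all genes to -0.16 in left and -0.18 in right kidneys, so changes there are relative to that shift.

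Leaving out 1 library or 1 mouse at a time, the log2 changes that crossed 0 ran, for right minus left in coarctation, -0.37 to 0.16 for Lmna, -1.83 to 1.69 for Lmnb1, -0.67 to 0.54 for Lmnb2, -0.23 to 0.068 for Sun1, -0.11 to 0.23 for Sun2, -0.23 to 0.43 for Syne2 and -0.47 to 1.38 for Syne3. They ran, for right minus left in sham, -0.88 to 0.51 for Lmna, -1.26 to 0.90 for Lmnb1, -0.094 to 1.00 for Sun1, -0.78 to 0.17 for Syne1, -2.81 to 3.20 for Syne3, -0.60 to 0.40 for Emd and -0.50 to 0.55 for Lbr. They ran, for the difference between side changes, -0.62 to 0.78 for Lmna, -2.04 to 1.48 for Lmnb1, -0.066 to 1.96 for Lmnb2, -0.49 to 0.16 for Syne2, -3.21 to 2.80 for Syne3, -0.24 to 0.76 for Emd and -0.46 to 0.59 for Lbr. They ran, for coarctation minus sham in left kidneys, -0.45 to 0.26 for Lmna, -0.23 to 1.60 for Lmnb1, -0.59 to 0.10 for Sun2, -0.36 to 0.59 for Syne1, -0.39 to 0.23 for Syne2, -2.35 to 2.37 for Syne3, -0.24 to 0.76 for Emd and -0.64 to 0.37 for Lbr. They ran, for coarctation minus sham in right kidneys, -0.76 to 0.64 for Lmna, -0.90 to 2.21 for Lmnb1, -1.72 to 1.82 for Syne3 and -0.17 to 0.034 for Lbr. The directions of the fitted changes of Syne1 and Emd in coarctation, and of Syne1 in right kidneys against sham, held in every alternative, at 0.34 to 0.83, 0.070 to 0.38 and 0.73 to 1.02. Members with fewer than 10 counts in a library have no value under the stricter filter. The replicate block in edgeR could not be fitted for coarctation against sham, which are different mice. Ratios between members moved by less than 1 SD with 0.1 TPM added or with counts per kilobase, and no length call of a member changed. Lmnb1, Lmnb2 and Syne3 held 1 to 169 counts per library, and counting error and spread between libraries were not separated for them.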
